A study of Rattus norvegicus with 3 samples.

Results

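The genes described here make, inactivate and sense estrogen. Cyp19a1, Hsd17b1, Hsd17b7, Hsd17b4, Sult1e1, Sts, Esr1 and Esr2 were named as a set of 8 genes, and every probe set that the platform annotation maps to one of these symbols alone was taken. This gave 11 probe sets of 31099, for 8 of 14218 genes on the array.

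Primary granulosa cells, the steroid-producing cells that surround the oocyte, were taken from female Sprague-Dawley rats, immature and 24 to 25 days old. The rats had received the hormone preparation PMSG (pregnant mare's serum gonadotropin) 48 h earlier, which drives follicles to the preovulatory stage. Cells of all 3 groups were cultured and infected with adenovirus at 50 pfu per cell, and no uninfected group was analysed here. The control group carried a virus for green fluorescent protein (Ad-GFP) and received no stimulus. A second group carried Ad-GFP and was cultured for 6 h with 10 uM forskolin, which activates adenylyl cyclase, and 20 nM phorbol 12-myristate 13-acetate, which activates protein kinase C (together FSK/PMA, a stand-in for the ovulatory hormone signal). The last group carried a virus for NFIL3 (Ad-NFIL3), a basic leucine zipper factor known mainly as a transcriptional repressor, and received the same FSK/PMA. Stimulation began 24 h after infection. RNA of 3 experiments was pooled for 1 array per group, so all values below compare 3 pools, without replicates and without a test.

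Granulosa cells convert androgens supplied by theca cells into estrogens. Aromatase, encoded by Cyp19a1, forms the aromatic ring, and reductive enzymes of the Hsd17b family turn the weak estrogen estrone into estradiol. Sulfation by Sult1e1 makes the hormone unable to bind its receptors, steroid sulfatase (Sts) reverses it, and the nuclear receptors encoded by Esr1 and Esr2 carry the signal. In the follicle, follicle-stimulating hormone is known to induce aromatase, and estrogen output is known to fall after the ovulatory surge.

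The unit is the MAS5 signal, the brightness of a probe set after scaling within its array. A floor of 126, the median of all signals, replaced lower values before log2 was taken. A fold that rests on a floored value is a lower bound, given as "at least". The arrays are called unstimulated (Ad-GFP alone), stimulated (Ad-GFP with FSK/PMA) and NFIL3 (Ad-NFIL3 with FSK/PMA), and triplets of signals are given in that order. A gene was called different at 2-fold, and a gene with several probe sets was represented by the brightest. Levels were compared between arrays for the same probe set, never between genes.

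The largest differences among these genes were those of Sult1e1, Cyp19a1 and Hsd17b1. With FSK/PMA, the signals of Sult1e1 and Cyp19a1 were at least 26.2-fold and at least 19.8-fold higher than on the unstimulated array, while that of Hsd17b1 was 3.76-fold lower. With NFIL3 added, the same 3 genes were 4.76-fold, 2.51-fold and 3.07-fold lower than with FSK/PMA alone. Hsd17b7, Hsd17b4 and Sts stayed within 2-fold in both comparisons. Esr1 and Esr2 were below the floor on every array. These comparisons share the stimulated array.

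Of the 6 members measured in the FSK/PMA comparison, 2 were at least 2-fold higher and 1 was at least 2-fold lower. Among all 9395 measured genes, 7.43% were called higher and 11.4% lower. The members' median log2 difference was 0.16, against -0.10 over all measured genes. In the NFIL3 comparison 0 of 6 members were called higher and 3 were called lower (2 with a floor at the 75th percentile), where 1.34% and 0.958% of 9397 measured genes were called. The median was -0.78, against 0.03 over all measured genes. The 6 members counted are those above the floor on at least 1 array of the comparison. They were chosen with earlier results of these data known, so the shares do not test whether they differ more often than other genes. Scaling arrays to their median instead moved the median of all genes to 0.03 with FSK/PMA and to -0.20 with NFIL3. The share of called genes that were higher then went from 39.4% to 50.1% with FSK/PMA and from 58.3% to 20.2% with NFIL3; the members' counts did not change.

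**Figure D1:**
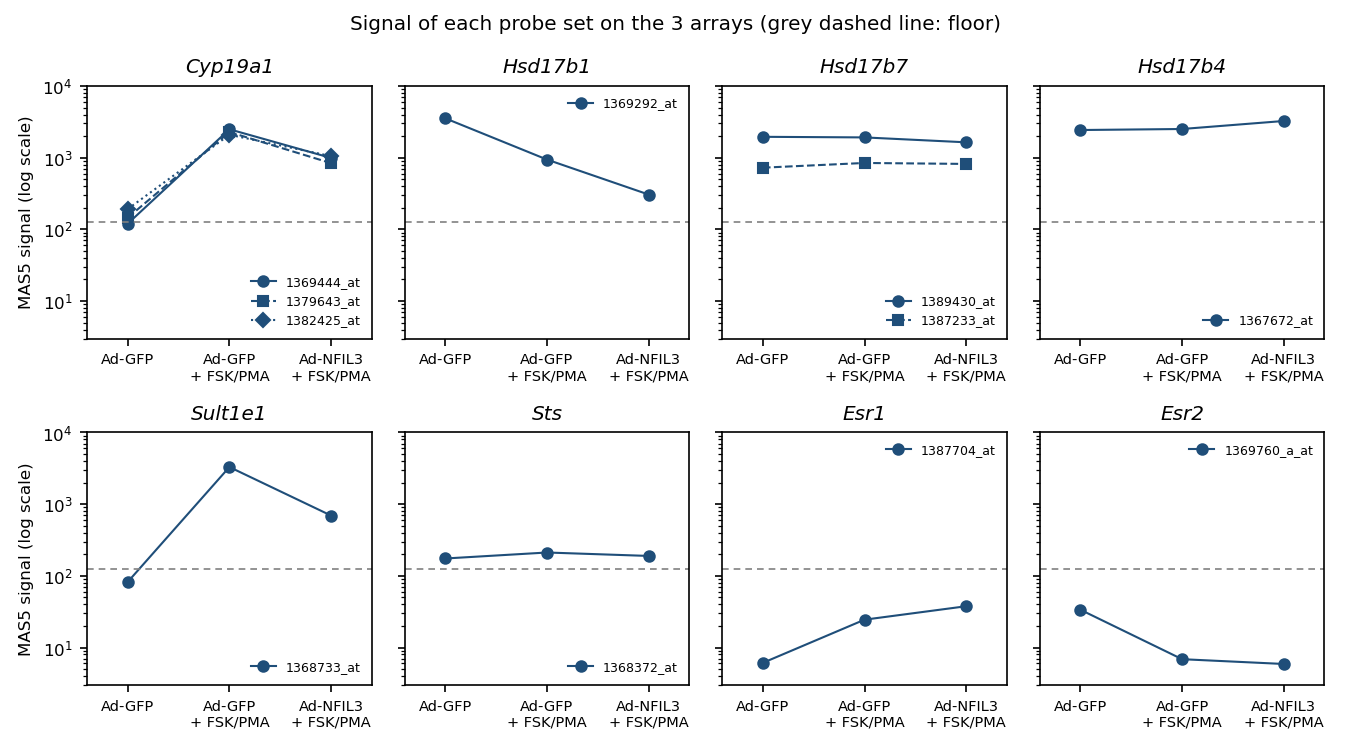
MAS5 signal on a log axis (vertical) for each of the 11 probe sets on the unstimulated, stimulated and NFIL3 arrays (horizontal); each marker is 1 probe set on 1 array, lines join the same probe set, and the grey dashed line is the floor of 126. Cyp19a1 and Sult1e1 peak on the stimulated array, Hsd17b1 is lower on each array in turn, and Esr1 and Esr2 lie under the floor throughout.

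Cyp19a1, which encodes the enzyme that commits androgens to estrogen, was read by 3 probe sets. The brightest, 1369444_at, read 120 unstimulated, 2490 stimulated and 992 on the NFIL3 array. Probe set 1379643_at had signals of 146, 2278 and 839, and 1382425_at had 192, 2090 and 1051. All 3 gave the same order of the arrays, with the unstimulated array near the floor, the stimulated array highest and the NFIL3 array between them. With FSK/PMA their log2 differences ran from 3.44 to at least 4.31, with a mean of 3.91 ± 0.43 (SD over 3 probe sets of the same arrays, with the floored value for the bound). The 2 probe sets that were above the floor on the unstimulated array were 15.6-fold and 10.9-fold higher.

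NFIL3 left 39.8%, 36.8% and 50.3% of the FSK/PMA signal of Cyp19a1 by these 3 probe sets. Their mean log2 difference was -1.25 ± 0.23 (SD over 3 probe sets), and that of 1382425_at, -0.99, was just short of 2-fold. Compared directly with the unstimulated control, the NFIL3 array was still at least 7.88-fold higher by the brightest probe set and 5.76-fold and 5.47-fold higher by the others.

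Hsd17b1, which encodes the granulosa cell enzyme that reduces estrone to estradiol, had a different course. Its only probe set, 1369292_at, read 3540 unstimulated, 941 stimulated and 306 on the NFIL3 array. The unstimulated array was highest and each further treatment was lower, by 3.76-fold and by a further 3.07-fold. With a floor at the 75th percentile, above the signal on the NFIL3 array, the NFIL3 log2 difference was -0.78 and no longer passed 2-fold. From control to NFIL3 with FSK/PMA the signal was 11.6-fold lower, and 8.65% of it was left. Thus aromatase and this reductase differed in opposite directions with FSK/PMA and in the same direction with NFIL3.

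The other Hsd17b genes of the set were within 2-fold throughout. Hsd17b7, known both as an estrone reductase and as a sterol reductase of cholesterol synthesis, had signals of 1955, 1918 and 1638 by 1389430_at and of 725, 844 and 818 by 1387233_at on the unstimulated, stimulated and NFIL3 arrays. The array order differed between these probe sets, and their log2 differences were -0.03 and 0.22 with FSK/PMA and -0.23 and -0.04 with NFIL3. Hsd17b4, a peroxisomal enzyme that oxidises estradiol and takes part in fatty acid breakdown, had signals of 2431, 2512 and 3249. It was the only measured member higher with NFIL3, by 1.29-fold.

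Sult1e1, estrogen sulfotransferase, had the largest difference of the set with NFIL3. Its order with FSK/PMA against the brightest Cyp19a1 probe set is not measured, since both folds are bounds. The 2 Cyp19a1 probe sets measured on both arrays gave 15.6-fold and 10.9-fold, below the at least 26.2-fold of Sult1e1. Its only probe set, 1368733_at, read 82.4 unstimulated, 3298 stimulated and 694 on the NFIL3 array. The unstimulated array lay below the floor, the stimulated array was highest and the NFIL3 array lay between, with 21.0% of the FSK/PMA signal. Against the unstimulated control, the NFIL3 array was at least 5.51-fold higher.

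The promoter window of Sult1e1 is shown because this gene was far higher with FSK/PMA and the most lowered of the set with NFIL3. RefSeq (assembly GRCr8) places the 250 bases before the start site of its reference transcript at chr14:20701230-20701479, plus strand; the annotated gene span begins upstream of this window. Capitals mark the reverse complement of AGGTCA, the core sequence bound by the steroidogenic nuclear receptors Nr5a1 and Nr5a2. Its first base lies 139 bases before the start site. Both of these genes were lower with FSK/PMA, with signals of 1971, 698 and 821 for Nr5a1 and 5506, 1836 and 1913 for Nr5a2. Binding at the marked bases was not tested.

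Sult1e1: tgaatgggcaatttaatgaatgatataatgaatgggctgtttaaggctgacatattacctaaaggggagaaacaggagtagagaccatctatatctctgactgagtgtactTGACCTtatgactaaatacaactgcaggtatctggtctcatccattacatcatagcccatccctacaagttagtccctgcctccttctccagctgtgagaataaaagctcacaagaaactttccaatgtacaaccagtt

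On both strands, AGGTCA occurred in 14.1% of all 33469 promoter windows of this length. The Sult1e1 window held no match to TTACGTAA or TTATGTAA, forms of the NFIL3 and PAR bZIP site (0.108% and 0.828% of windows), to the cAMP response element TGACGTCA (1.59%) or its TGACG core (18.2%), which the full element contains, to the AP-1 site TGACTCA (4.05%) or to TATAAA (12.9%). These letters not being in the window says nothing about the factors.

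Sts, which releases estrogens from their sulfates, differed far less than the enzyme it opposes. Its probe set, 1368372_at, read 175 unstimulated, 212 stimulated and 190 on the NFIL3 array, close above the floor on all arrays. The log2 differences were 0.28 and -0.16. Its window is shown beside that of Sult1e1 because it held TGACGTCA at 2 places, 225 and 94 bases before the start site. The surrounding 30 bases (GRCr8, plus strand, element in capitals) lie at chrX:46102524-46102553 and chrX:46102655-46102684.

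Sts, distal: gaccccgccccTGACGTCAattatagtgtc
Sts, proximal: gccctgcccccTGACGTCAccgaggcccgg

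Windows were found for 6 members. None was available for Cyp19a1 or Hsd17b1, so the promoters of these genes were not searched. Besides Sts and Sult1e1, those of Hsd17b7 and Esr2 each held 1 TGACG, that of Hsd17b4 held 1 AGGTCA, and that of Sts also held AGGTCA and a further TGACG. None of the 6 held TTACGTAA, TTATGTAA, TGACTCA or TATAAA, or the full estrogen response element (0.0239% of windows).

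Neither receptor gene was measured. Esr1, which encodes estrogen receptor alpha, had signals of 6.12 unstimulated, 24.5 stimulated and 37.7 on the NFIL3 array. Esr2, which encodes estrogen receptor beta, the form known to predominate in granulosa cells, had signals of 33.7, 6.88 and 5.90. All 6 values lay under the floor, in the range of 15 probe sets for bacterial transcripts that rat RNA lacks, which reached 40.2, 34.1 and 47.7 on these arrays. No fold is given for values this low, and with 1 probe set each the signals show only that neither transcript was above the floor with these probes.

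**Figure D2:**
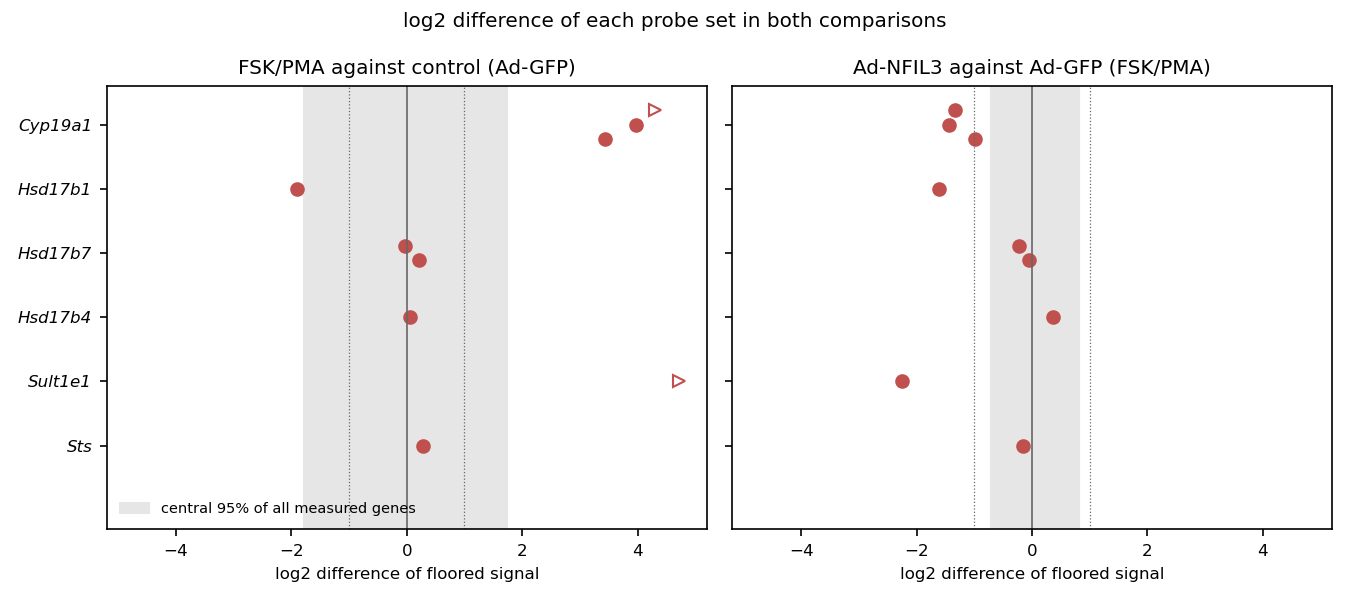
log2 difference of the floored signal (horizontal) for each probe set of the 6 measured genes (vertical), with the stimulated against the unstimulated array on the left and the NFIL3 against the stimulated array on the right. Filled points are measured on both arrays, open triangles are bounds, dotted lines mark 2-fold and the grey band is the central 95% of all measured genes, -1.79 to 1.73 and -0.71 to 0.82; Cyp19a1, Sult1e1 and Hsd17b1 lie outside it in both panels.

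Technical spread was read from genes with 2 measured probe sets. Their disagreement gave a robust SD per log2 difference of 0.36 over 1895 genes with FSK/PMA and 0.24 over 1846 genes with NFIL3, which leaves out differences between cultures. By the scaling used here, the FSK/PMA differences of Hsd17b7, Hsd17b4 and Sts were all smaller than this spread. That of Sts was 0.41, 0.46 and 0.48 under median scaling, quantile normalisation and cyclic loess, which exceeded 0.36. With NFIL3, that of Hsd17b4 (0.37) exceeded it and those of Hsd17b7 and Sts did not. Median scaling reversed this, with 0.13 for Hsd17b4, -0.46 for Hsd17b7 and -0.40 for Sts. Sts also exceeded the NFIL3 spread under quantile normalisation and cyclic loess, at -0.34 in each. Differences of Cyp19a1, Sult1e1 and Hsd17b1 were at least 5.38 times the spread in both comparisons.

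Checks of the arrays were as follows. Array medians ran from 115 to 136, and 48.1% to 51.8% of probe sets exceeded the floor. The signal of Nfil3, by 1 probe set, was 564, 1321 and 5882, highest on the array labelled Ad-NFIL3; whether that probe set reads the part of the transcript the virus carries is not known here. Over 9 probe sets of spiked hybridisation controls, the median ratio to the unstimulated array was 1.39 on the stimulated and 1.48 on the NFIL3 array. All 9 granulosa markers on the array were above the floor on all 3 arrays, with summed signals of 93898, 83268 and 52649. These sums include Inha at 26489, 29911 and 18604, Inhba at 29369, 21912 and 8520, and Serpine2 at 11063, 7970 and 2873. The median log2 difference of the 9 with NFIL3 was -0.18, with 3 above 0 and 6 below. With FSK/PMA, 4 of these 9 were called lower, Fst by 3.78-fold, Foxl2 by 3.39-fold, Nr5a2 by 3.00-fold and Nr5a1 by 2.83-fold. Only Cyp11a1 was called higher, by 3.08-fold. With NFIL3, 2 of these 9 were called lower, Inhba, the inhibin beta A subunit, by 2.57-fold and Serpine2, a protease inhibitor, by 2.77-fold. The theca markers Cyp17a1 and Insl3 were not above the floor on any array. Of 11 theca and stroma markers between 4 and 6 were above it, with summed signals of 4555, 2654 and 3418. These sums include Nr2f2 at 3232, 1579 and 1883. It was the only one of them called with FSK/PMA, at 2.05-fold lower, a call that median scaling ended. With NFIL3, 5 of 5 measured theca and stroma markers had differences above 0 (4 of 5 under median scaling, quantile normalisation or cyclic loess). The median of all measured genes was 0.03. Only Dcn, which encodes the matrix proteoglycan decorin, was called, at 2.45-fold higher. The others had log2 differences of 0.05 for Col3a1, 0.24 for Pdgfra (a bound) and 0.25 for both Col1a2 and Nr2f2. Of 8 leukocyte markers 4 or 5 were above the floor (2301, 2997 and 3331) and Ptprc was not. Among them Cd14 read 606, 1488 and 1562, called 2.46-fold higher with FSK/PMA, and Lyz2 read 1110, 769 and 970. Of 5 endothelial markers 1 or 2 were above the floor (418, 485 and 529) and Pecam1 was not. Of 6 oocyte markers only Zp2 was above it (summed 1017, 666 and 451). Red cell markers summed to 19937, 18366 and 15713. The part of these shifts in the differences described here was not tested, and in pooled RNA fewer cells of a type and less RNA per cell cannot be told apart.

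Other genes of estrogen metabolism and action were read from 9 lists, 121 symbols in all, of which 110 were on the array. With FSK/PMA, of 84 measured genes 13 passed 2-fold upward and 20 downward, which was 15.5% and 23.8%, beside 7.43% and 11.4% of all measured genes. With NFIL3 0 of 83 were higher and 3 were lower, 3.61% beside 0.958%. These 3 were Sult1b1, Lhcgr and Pgr. The lists were chosen with earlier results of these data known, so these shares do not test whether such genes differ more often than others.

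**Figure D3:**
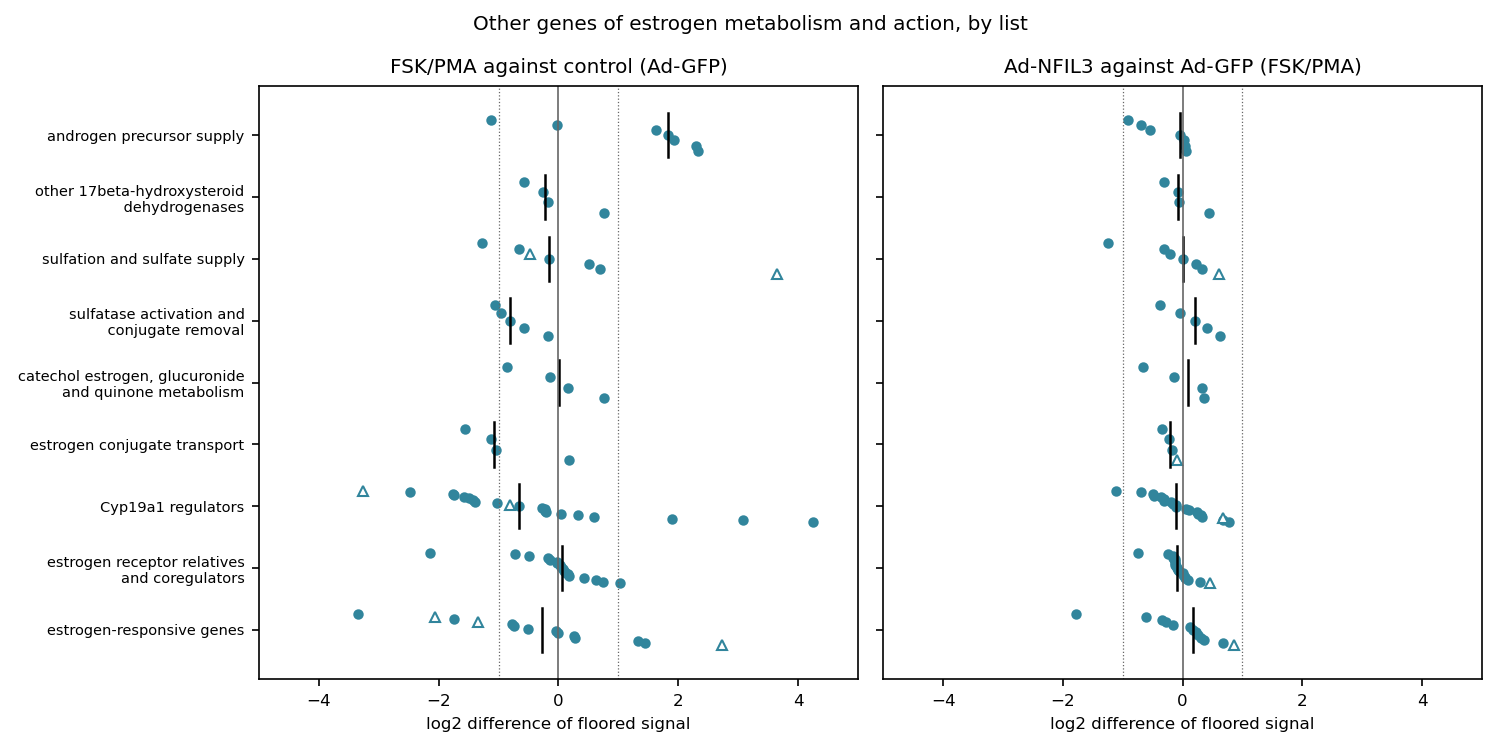
log2 difference of the floored signal (horizontal) for each measured gene of the 9 lists (vertical), with the stimulated against the unstimulated array on the left and the NFIL3 against the stimulated array on the right. Points are genes, open triangles are bounds, black bars are list medians and dotted lines mark 2-fold. The androgen precursor supply list has the highest median on the left (1.83), and on the right 3 genes lie beyond 2-fold.

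A list named androgen precursor supply held genes of cholesterol uptake, early steroid synthesis and electron transfer. Its genes were mostly higher with FSK/PMA, 5 of 7 measured, with 1 lower and a median of 1.83. Scarb1, the receptor that takes up lipoprotein cholesterol, was 5.04-fold higher, and Star, which moves cholesterol into mitochondria, was 4.89-fold higher. Their log2 differences with NFIL3 were -0.54 and -0.69, and their second probe sets gave -0.47 and -0.72. Por, the reductase that gives aromatase its electrons, had signals of 1085, 4143 and 2210. It was 3.82-fold higher with FSK/PMA and 1.87-fold lower with NFIL3, below 2-fold, and its second probe set differed by 2.38 and -0.83 on the log2 scale. Fdx1, the mitochondrial electron carrier, was 3.55-fold higher and Cyp11a1, the side-chain cleavage enzyme, 3.08-fold higher. Under NFIL3, Fdx1 and Cyp11a1 had log2 differences of 0.03 and -0.04, and the second Fdx1 probe set gave -0.35. Cyb5a, cytochrome b5, was 2.18-fold lower with FSK/PMA, a call that median scaling ended. Cyp17a1, the theca cell enzyme that forms androgens, had signals of 4.36, 5.21 and 40.2, all under the floor. The higher genes of this list therefore do not show that these cells formed more androgen. No gene of this list passed 2-fold with NFIL3 (median -0.04, with 3 genes above 0 and 4 below). Median scaling brought Por past 2-fold and the list median to -0.28.

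Other Hsd17b genes showed no difference of 2-fold in either comparison among the 4 measured of 8 on the array. Hsd17b10, a mitochondrial member, had signals of 4839, 4282 and 4096. Hsd17b12, which also acts in fatty acid elongation, had signals of 3037, 5146 and 4141. Hsd17b2, which oxidises estradiol to estrone in other tissues, had signals of 15.2, 25.2 and 53.9, under the floor. The list medians were -0.22 with FSK/PMA and -0.07 with NFIL3.

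In the sulfation list, 7 of 13 genes on the array were measured. Sult1b1, a cytosolic sulfotransferase of the same family as Sult1e1 that acts on phenols and thyroid hormones, had signals of 88.5, 1575 and 661. It was at least 12.5-fold higher with FSK/PMA and 2.38-fold lower with NFIL3, and was the only gene of the list called higher or, with NFIL3, lower. Papss1, which makes the sulfate donor used by all sulfotransferases, was 2.43-fold lower with FSK/PMA, with signals of 1916, 787 and 790. Papss2, its paralog, was within 2-fold, with signals of 293, 471 and 379. The list medians were -0.17 and 0.00.

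The genes for sulfatase activation and conjugate removal were all lower with FSK/PMA, 5 of 5 measured, where the median of all measured genes was -0.10. Only Arsa, arylsulfatase A, passed 2-fold, at 2.08-fold, and it did not under median scaling, quantile normalisation or cyclic loess. With the mean of measured probe sets Sumf2, of the same list, passed 2-fold and Arsa did not. Sumf1, the enzyme that activates sulfatases including Sts, had signals of 1209, 810 and 930. The list median was -0.81 with FSK/PMA and 0.20 with NFIL3, where 0 of 5 passed 2-fold and median scaling turned the list median to -0.04. Arsa had a second probe set that differed by -0.80 with FSK/PMA and by -0.80 with NFIL3, against 0.41 for the brighter one.

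Transporters that carry estrogen conjugates were lower in 3 of 4 measured cases with FSK/PMA (median -1.08). Abcc4 and Abcc1, export pumps of the same family, were 2.95-fold and 2.17-fold lower, and Slco3a1, an organic anion transporter, was 2.06-fold lower; its second probe set differed by -0.60. With median scaling, cyclic loess or a floor at the 75th percentile only Abcc4 passed 2-fold. With NFIL3 0 of 4 passed 2-fold. In the list of catechol estrogen, glucuronide and quinone metabolism, 0 of 4 measured genes passed 2-fold in either comparison. Gstp1, a glutathione transferase, had signals of 14286, 15953 and 20555, and Gstm1, another, had 6829, 3745 and 2379 and passed 2-fold downward with FSK/PMA under quantile normalisation and cyclic loess.

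Regulators of Cyp19a1 differed in both directions with FSK/PMA, with 3 of 21 measured genes at least 2-fold higher and 9 lower (median -0.65). Nr4a1, an early response nuclear receptor, was 19.0-fold higher and Crem, which encodes activators and repressors of cAMP-responsive promoters, was 8.50-fold higher; the 5 other Crem probe sets ran from 0.45 to 3.85 on the log2 scale. Nr0b1, which represses steroidogenic genes, was at least 9.59-fold lower. Foxo1, a factor of growing-follicle granulosa cells, was 5.58-fold lower, and Cebpb, which is induced by the ovulatory signal, was 3.73-fold higher.

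With NFIL3, 0 of 20 measured Cyp19a1 regulators were higher and 1 was lower (median -0.11). This was Lhcgr, the luteinizing hormone receptor, with signals of 6631, 2473 and 1150, 2.15-fold lower. Its second probe set differed by -0.57 on the log2 scale, so that the mean of its probe sets did not pass 2-fold. Ctnnb1, beta-catenin, a coactivator at the aromatase promoter, had signals of 16674, 20985 and 25819. Its log2 difference with NFIL3 was 0.30, and its 2 other measured probe sets gave 0.04 and 0.15.

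Receptor relatives and coregulators were within 2-fold in 16 of 18 measured cases with FSK/PMA (median 0.06) and in 19 of 19 with NFIL3 (median -0.09). Nrip1, a coregulator of estrogen and other nuclear receptors, had signals of 2397, 544 and 327, and was 4.40-fold lower with FSK/PMA. Esrra, an orphan receptor related to the estrogen receptors, was 2.04-fold higher, a call that ended with a floor at the 75th percentile and with no floor and 16 added. Gper1, the membrane estrogen receptor, had signals of 21.6, 27.2 and 57.2, under the floor.

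Of 14 measured genes known to respond to estrogen in some tissues, 3 were higher and 4 lower with FSK/PMA (median -0.28). Inhbb, the inhibin beta B subunit, was 10.1-fold lower and Nppc, whose peptide keeps oocytes from resuming meiosis, at least 4.17-fold lower, a call that a floor at the 75th percentile ended. Greb1, an estrogen receptor cofactor and target, had signals of 11926, 3548 and 4370, 3.36-fold lower. Pgr, the progesterone receptor gene, was at least 6.64-fold higher and Myc was 2.73-fold higher. With NFIL3 only Pgr of 13 measured passed 2-fold, with signals of 44.4, 836 and 243 and a difference of 3.44-fold lower (median of the list 0.17, and -0.09 with median scaling). That floor ended the calls of Pgr in both comparisons.

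Genes whose pair of floored log2 differences lay closest to those of 3 members were found among 6368 genes with a signal of at least 503 on some array. The FSK/PMA differences of Cyp19a1, Sult1e1, Nr4a3 and Adcyap1 are bounds set by the floor, so for Cyp19a1 and Sult1e1 the genes are named without distance or order. For Cyp19a1 these were Runx1, an ovulatory transcription factor gene, Adgrg6, an adhesion receptor gene, and Nr4a3, an early response nuclear receptor gene. Runx1 had signals of 587, 11634 and 4598, a log2 difference of 4.31 with FSK/PMA, where the Cyp19a1 probe sets measured on both arrays gave 3.97 and 3.44. For Sult1e1 they were Adcyap1, the PACAP neuropeptide gene, Nr4a3 and Adgrg6. For Hsd17b1, measured on all arrays, they were Crym at a Euclidean distance of 0.24, Stc1, a secreted stanniocalcin, at 0.29 and Pacc1 at 0.56. Crym, which encodes a thyroid hormone-binding protein, had signals of 9487, 2743 and 1034. Likeness was measured over only 3 arrays.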

How the data were processed

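Intensity values per probe set were deposited as linear MAS5 signals. The submitters' processing notes name MAS5 without a version. All 3 deposited columns had a 2% trimmed mean of 500, the mark of an earlier scaling by the authors; this scaling was repeated here before the floor of 126 and log2.

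Genes were assigned by the platform annotation (1 symbol for 20832, several for 436, none for 9831). Symbols were updated with the RefSeq gene table of GRCr8, by Entrez ID for 20764 and by accession for 2, Sult1e1 among them. Promoter windows came from RefSeq.

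With 1 array per group no test was possible, so precision is limited by the number of arrays. Members and lists were chosen with earlier results of these data known. All 8 members are named; of each other list, up to 5 genes past 2-fold by size, otherwise up to 2 of the highest signal, and some opposing, paralogous or undetected genes chosen after their values were seen.

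The code was tested on simulated data. Alternatives were median scaling, quantile normalisation, cyclic loess (limma 3.58.1, R 4.3.3), other floors and other probe set rules. Python 3.11.15, numpy 2.4.6, pandas 2.3.3 and matplotlib 3.10.9 were used.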

Additional observations from a re-analysis of the deposited data

How the results depend on the processing

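Over 8 alternatives the member counts stayed within 1.5 times of the values given and the medians within the technical spread, except that with no floor and 16 added, where Esr1 and Esr2 count as measured, 2 members were lower with FSK/PMA and the NFIL3 median was -0.19. Floors above the control signals lowered the bounds: log2 differences with FSK/PMA ran from 2.19 to 4.44 for Cyp19a1 and from 2.59 to 5.32 for Sult1e1. The NFIL3 difference of Hsd17b1 ran from -1.86 to -0.78, the last with a floor at the 75th percentile, above its signal on the NFIL3 array, which ended its call. Those of Cyp19a1 and Sult1e1 ran from -1.56 to -1.25 and from -2.49 to -2.19. Over all genes the FSK/PMA counts of higher and lower were 698 and 1072, 420 and 402 with that floor, and 1315 and 1751 with none. The NFIL3 counts were 126 and 90, 48 and 190 with median scaling, 545 and 236 with a floor at the 25th percentile, 36 and 48 at the 75th, and 903 and 552 with none. No paired analysis was possible because each group has 1 array.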

Other observations

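In the RefSeq gene table Sult1e1 and Sult1b1 lie near each other, with 1 gene of the same family, Sult1d1, between them. Sult1d1 read 15.6 unstimulated, 34.8 stimulated and 8.82 on the NFIL3 array, under the floor, beside 82.4, 3298 and 694 for Sult1e1 and 88.5, 1575 and 661 for Sult1b1. Of the 16 nearest protein-coding genes of Sult1e1, 8 on each side, 8 were on the array and only Sult1b1 was above the floor. The others, among them the casein genes Csn1s1 and Csn2 on one flank and Ugt2a1 on the other, had signals of at most 78.0 on any array.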
